A study of Mus musculus with 20 samples.

Results

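The genes described here are 10 markers of GABAergic interneuron identity, namely Gad1, Gad2, Slc32a1, Sst, Npy, Lhx6, Dlx1, Dlx2, Dlx5 and Calb2. They were chosen by symbol as genes known from inhibitory neurons, by a rule that uses no measured value though earlier results of these data were known, out of 14700 genes listed in at least 1 of the 4 deposited tables. All 10 were present in all 4 tables, so none was lost to the authors' filter on low values. RNA was sequenced from primary cortical neurons of mouse embryos, isolated at embryonic day 15 and grown for 7 days in Neurobasal medium with B27. The study compared wild-type cultures (WT) with cultures lacking the circular RNA ciRS-7 (KO), each held for 12 h either in normoxia (N) or without glucose at low oxygen (oxygen and glucose deprivation, OGD), which models ischemia in a dish.

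N_WT was wild type in normoxia, with fresh medium holding glucose at 25 mM and sodium pyruvate at 0.2 mM. OGD_WT was wild type in the same base medium without either supplement, kept at 1% oxygen, 5% CO2 and 37 °C. N_KO and OGD_KO were the knockout cultures under those same 2 conditions. The labels give the strain C57BL/6N-Cdr1asem1Nikr for all 4 groups, and each group had 5 libraries that the study calls biological replicates. Each N library shared its genotype label and its batch label with the OGD library of the same number, and such a pair is called a culture below. This pairing by number is assumed. Batch does not fix it, since WT libraries 2 and 4 share 3.3 and KO libraries 2 and 4 share 3.1. The measured levels did not bear it out either, as given under processing. The batch labels were not balanced: WT cultures 1 to 5 carry 1, 3.3, 3.2, 3.3 and 3.1, and KO cultures 1 to 5 carry 1, 3.1, 2, 3.1 and 3.3.

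Depth and composition were as follows. Each of the 20 libraries held between 7071506 and 16658618 reads. Cdr1as, the ciRS-7 locus, had 545 to 1912 reads per WT library and 2 to 16 per KO library, which matches the genotype labels. The OGD comparisons were broad: limma called 44.3% of 14235 genes in wild type and 40.9% of 14375 genes in knockout at an adjusted p under 0.05. Markers of other cells moved too. All 12 proliferation genes rose in both genotypes. CPM here means reads relative to library size, as scaled in the deposited tables. The summed level of these genes was 569 to 755 CPM in N_WT and 1053 to 1905 CPM in OGD_WT. In knockout it was 530 to 871 CPM in N_KO and 1274 to 1743 CPM in OGD_KO. The 10 measured astrocyte genes summed to 1465 to 1938 CPM in N_WT and 2268 to 2919 CPM in OGD_WT, and to 1405 to 1881 CPM in N_KO and 1957 to 2667 CPM in OGD_KO. The 17 excitatory neuron genes summed to 2032 to 2212 CPM in N_WT and 1289 to 1526 CPM in OGD_WT, and to 1850 to 2128 CPM in N_KO and 1173 to 1694 CPM in OGD_KO. The sums of the 10 interneuron genes overlapped, at 370 to 464 CPM in N_WT, 328 to 483 CPM in OGD_WT, 370 to 540 CPM in N_KO and 326 to 475 CPM in OGD_KO. The part of these shifts in the values below was not tested, and in bulk RNA fewer cells of a type and less RNA per cell cannot be told apart. The sums also depend on the scaling. That of the deposited tables set OGD higher relative to N than scaling by total reads, by 0.28 (wild type) and 0.29 (knockout) log2. With libraries scaled by total reads, the median log2 fold change of the astrocyte genes was 0.15 and 0.13, in place of 0.43 and 0.42. For the 10 interneuron genes it was -0.51 and -0.49, in place of -0.24 and -0.20.

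Cortical interneurons use GABA, which they make from glutamate with glutamate decarboxylase and load into synaptic vesicles with a dedicated transporter. Most are born in the ganglionic eminences of the ventral forebrain, where Dlx homeobox factors set a GABAergic fate, and migrate into the cortex. Lhx6 marks the medial ganglionic eminence lineage that gives rise to somatostatin and parvalbumin cells, while calretinin marks other classes. Dlx genes and the decarboxylases are also expressed by striatal projection neurons, which can enter a cortical dissection.

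The cultures expressed the whole set. On a scale per kilobase of exon and per library total (RPKM), Sst was the most abundant of the 10 genes in N_WT, at 68.7 ± 18.4 (SD, n = 5). A middle group followed in which neighbours overlapped: Gad1 at 18.2 ± 2.46, Dlx1 at 18.1 ± 2.87, Npy at 14.2 ± 3.51 and Gad2 at 13.4 ± 2.17 (SD, n = 5). Its lowest value, 9.504 for Npy, lay above the highest of the next gene, 9.09 for Slc32a1. Slc32a1 at 7.29 ± 1.15, Calb2 at 6.77 ± 1.54, Lhx6 at 5.62 ± 0.63, Dlx5 at 4.38 ± 1.17 and Dlx2 at 3.504 ± 1.15 (SD, n = 5) again overlapped with their neighbours. Sst stayed first in the other groups, at 46.2 ± 10.8 RPKM in OGD_WT, 65.8 ± 17.0 in N_KO and 45.1 ± 12.7 in OGD_KO (SD, n = 5). The order rests on lengths that join all annotated exons of a gene, 0.721 kb for Sst and 7.639 kb for Gad1. In reads Gad1 lay above Sst, at 902 to 2145 against 267 to 706 per N_WT library. Calb2 stood 7th in N_WT and 10th in OGD_WT, at 2.74 ± 0.59 RPKM, and 6th in N_KO and 10th in OGD_KO, at 3.01 ± 0.65 RPKM (SD, n = 5). Parvalbumin (Pvalb) and Vip, which define other interneuron classes, were not in the tables. Striatal markers were present: 14 of 15 listed genes were measured and summed to 828 to 1023 CPM in N_WT, beside 370 to 464 CPM for the 10 interneuron genes. Levels within that list were uneven. Meis2, Bcl11a and Pde10a were the highest, with N_WT means of 8.68, 8.08 and 7.17 log2 CPM, while Ppp1r1b was at 3.52 and Drd1 at 2.08. The sum therefore follows a few genes and does not measure the amount of striatal RNA.

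**Figure D1:**
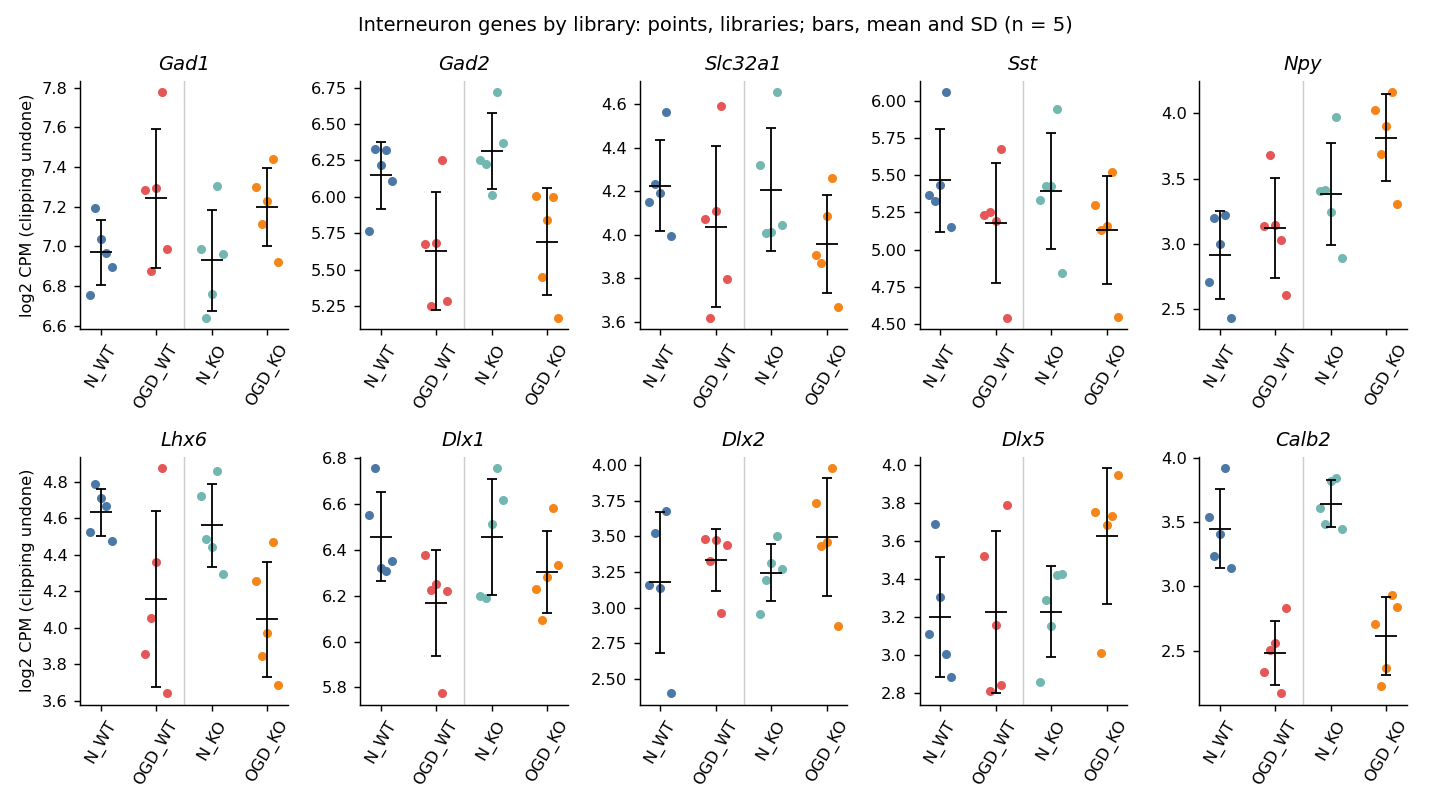
Level of each gene in log2 CPM (y axis, a separate range per panel, not starting at 0) in the 5 libraries of N_WT, OGD_WT, N_KO and OGD_KO; points are libraries, bars are the mean and SD, and the scale is that of the table holding N and OGD of 1 genotype. Calb2 is the gene whose N and OGD libraries do not overlap in either genotype, and Gad2 does not overlap in the knockout.

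The first question was how deprivation changed these genes in wild-type cultures. Calb2, Gad2 and Lhx6 fell, and no member rose. That is 3 of 10 called lower and none higher, where 22.8% of all genes were called lower, 21.6% higher and 44.3% in either direction. With only 10 genes, the difference between these shares was not tested. The median log2 fold change of the 10 genes was -0.24, beside -0.03 over all 14235 genes. Groups did not overlap for 1 of 10 members (Calb2), beside 26.9% of all genes.

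In knockout cultures the same 3 genes fell and none rose. There 19.9% of all genes were called lower, 21% higher and 40.9% in either direction. The median over the 10 genes was -0.20, beside 0.00 over all 14375 genes. Groups did not overlap for 2 of 10 members (Gad2 and Calb2), beside 25.8% of all genes. The 2 OGD comparisons share no library, and in each of them Gad1, Npy, Dlx2 and Dlx5 had positive estimates and the other 6 genes negative ones. Most of those positive signs depend on the scaling of the libraries. Fold changes here follow the scaling of the deposited tables, under which the median gene was near 0. With libraries scaled by total reads instead, the median over all genes was -0.29 in wild type and -0.27 in knockout, that over the 10 genes was -0.51 and -0.49, and 6 of the 10 were called lower in each genotype, where 40.5% of all genes in wild type and 37% in knockout were called lower with that scaling.

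**Figure D2:**
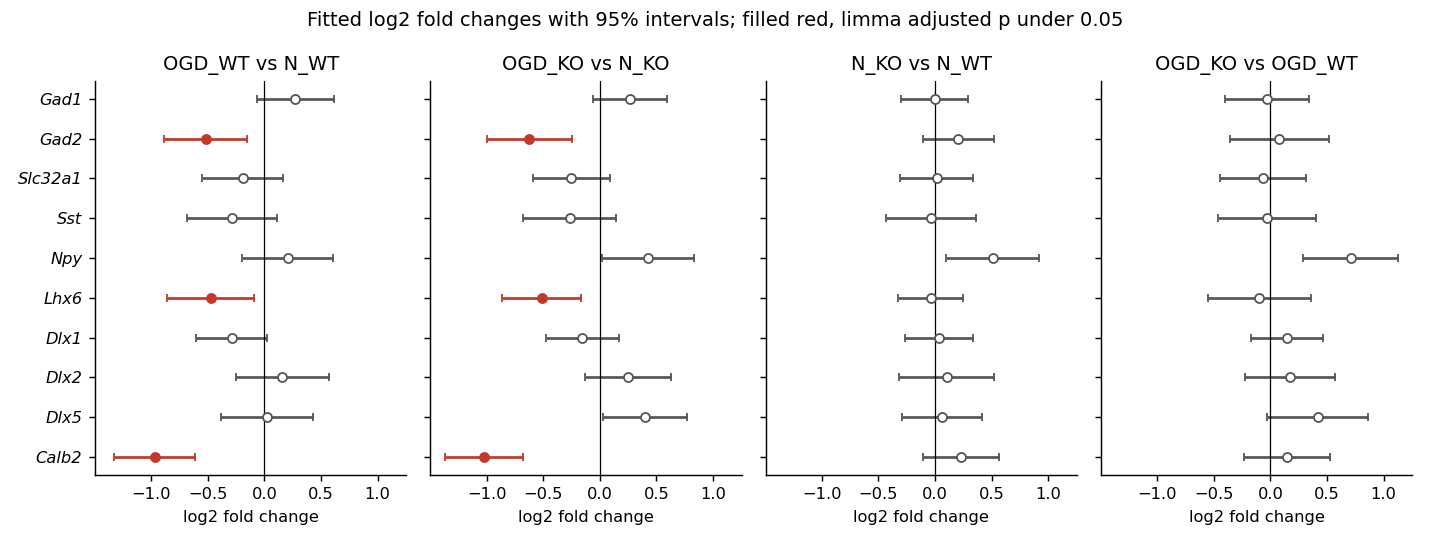
Fitted log2 fold change (x axis) of each gene in the 4 comparisons, with its 95% interval from limma; filled red points have an adjusted p under 0.05. Calb2, Gad2 and Lhx6 are filled in both OGD comparisons and no gene is filled in either genotype comparison.

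Gad1 and Gad2 encode the 2 glutamate decarboxylases. The product of Gad1 supplies most GABA of the cell, and that of Gad2 sits at synaptic vesicles. Gad2 was at 5.77, 6.33, 6.22, 6.32 and 6.11 log2 CPM in N_WT libraries 1 to 5 and at 5.68, 5.25, 5.68, 6.25 and 5.28 in OGD_WT. Library 4 of OGD_WT lay within the normoxic range and the other OGD libraries lay below it, so the groups overlapped. The mean was 6.15 ± 0.23 in N_WT and 5.63 ± 0.41 in OGD_WT (SD, n = 5). Gad2 fell by 0.52 on the log2 scale (SE 0.18, limma adjusted p = 0.0219, exact permutation p = 0.0476), to 69.8% of normoxia, and was lower in 5 of 5 cultures. Without library 2 of OGD_WT, or library 2 or 4 of N_WT, this call was lost, with limma adjusted p of 0.0692, 0.0574 and 0.0593. In batch 3 cultures alone it was -0.63 (limma adjusted p = 0.0229).

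In the knockout Gad2 was at 6.26, 6.23, 6.01, 6.72 and 6.37 log2 CPM in N_KO and at 6.01, 5.45, 5.84, 6.00 and 5.17 in OGD_KO. All 5 OGD libraries lay below all 5 normoxic ones, the closest 2 being 6.007 (OGD_KO library 1) and 6.011 (N_KO library 3). The means were 6.32 ± 0.26 and 5.69 ± 0.37 (SD, n = 5). Gad2 fell by 0.62 (SE 0.18, limma adjusted p = 0.00927, exact permutation p = 0.00794, the smallest that 5 against 5 allows), to 64.9% of normoxia. With the groups apart, any pairing of libraries would give a fall in 5 of 5 cultures. The Gad2 call was kept in all 21 alternative fits, among them that to batch 3 cultures alone (-0.90, limma adjusted p = 0.0315).

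Gad1 did not follow Gad2. It was at 6.75, 7.19, 7.04, 6.97 and 6.89 log2 CPM in N_WT and at 7.28, 6.87, 7.30, 7.78 and 6.99 in OGD_WT, with overlapping groups. The estimate was 0.27 (SE 0.16, 95% interval -0.07 to 0.62, limma adjusted p = 0.184), positive in 4 of 5 cultures, and it was -0.0051 when libraries were scaled by total reads. In the knockout Gad1 was at 6.93 ± 0.25 log2 CPM in N_KO and 7.20 ± 0.20 in OGD_KO (SD, n = 5). The estimate there was 0.27 (SE 0.16, 95% interval -0.06 to 0.60, limma adjusted p = 0.177), again in 4 of 5 cultures, and -0.02 with total-read scaling. On the values as deposited, in which the extreme libraries of a group are drawn inwards, limma called Gad1 in the knockout (0.29, SE 0.12, adjusted p = 0.0394). Drawing values inwards narrows the spread within groups, which makes p-values on the deposited values too small.

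The ratio of Gad1 to Gad2 reads inside 1 library does not depend on library scaling. It was computed after the single values had been seen. There were 1.99, 1.83, 1.77, 1.57 and 1.73 Gad1 reads per Gad2 read in N_WT libraries 1 to 5, and 3.06, 3.11, 3.08, 2.88 and 3.29 in OGD_WT. All 5 OGD_WT libraries lay above all 5 N_WT libraries, and the geometric means, 3.08 and 1.77, differed 1.74-fold. In N_KO the ratio was 1.67, 1.33, 1.68, 1.503 and 1.51, and in OGD_KO it was 2.46, 3.19, 2.63, 2.73 and 3.39. The groups were again apart, with geometric means of 2.86 and 1.53, a 1.86-fold difference. The exact permutation p was 0.00794 in each genotype, and 0.0159 adjusted over the 4 comparisons of the ratio. Since the pair was picked after its values had been seen, these p-values describe the separation and are no independent support for it. The adjustment does not cover other gene pairs, whose ratios were not examined. Within normoxia the ratio was lower in N_KO than in N_WT by 0.21 on the log2 scale (exact permutation p = 0.0397, adjusted p = 0.0529), and under OGD the genotypes differed by 0.11 (exact permutation p = 0.278), so neither passed after adjustment.

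**Figure D3:**
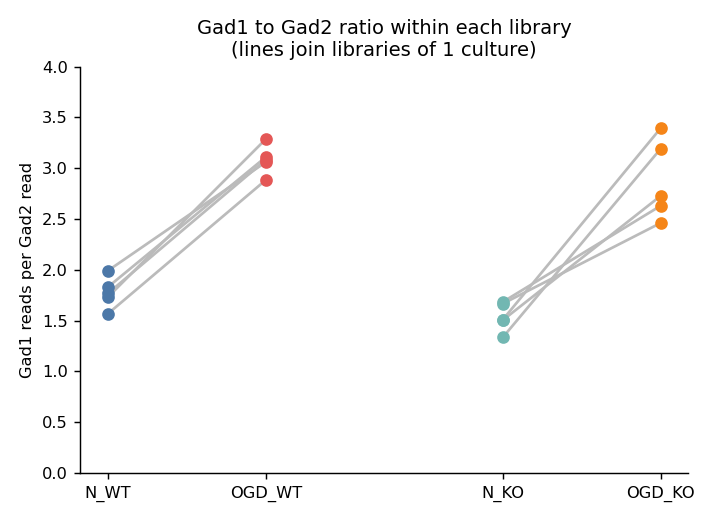
Reads of Gad1 per read of Gad2 (y axis, linear, from 0) in each library of N_WT, OGD_WT, N_KO and OGD_KO; points are libraries and lines join the N and OGD library of 1 culture. All 10 lines go up, from 1.33 to 1.99 in normoxia to 2.46 to 3.39 under OGD. Any pairing of libraries would give this, since N and OGD do not overlap in either genotype.

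The change in the ratio was between 0.56 and 1.26 on the log2 scale in all 10 cultures, while the change of Gad1 ran from -0.32 to 0.81 and that of Gad2 from -1.20 to -0.066. In culture WT4 Gad1 changed by 0.81 and Gad2 by -0.07. In culture WT2 Gad1 changed by -0.32 and Gad2 by -1.08. Culture KO5 was like WT2, with -0.04 for Gad1 and -1.20 for Gad2. WT2 and KO5 also had the largest median absolute log2 change over all genes in their genotype, at 0.52 and 0.58, where the other cultures had 0.35 to 0.47. That measure compares single libraries by the assumed pairing, and the part of noise between libraries in it was not tested.

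The start-site windows of this pair are shown because the 2 genes diverged, with those of Sst and Dlx2 because only these and Gad2, of 8 members with an entry, held any of the words searched. Each window is the 250 bases before the RefSeq start (GRCm38.p6), read along the gene's strand. The words were ACGTG, the core of the hypoxia response element, TGACG, the short form of the cyclic AMP response element, the whole element TGACGTCA, and the homeodomain core TAATTA, each searched on both strands. Capitals mark the matches, and a lone short form on the other strand reads CGTCA.
Gad1 at chr2:70561879-70562128, plus strand: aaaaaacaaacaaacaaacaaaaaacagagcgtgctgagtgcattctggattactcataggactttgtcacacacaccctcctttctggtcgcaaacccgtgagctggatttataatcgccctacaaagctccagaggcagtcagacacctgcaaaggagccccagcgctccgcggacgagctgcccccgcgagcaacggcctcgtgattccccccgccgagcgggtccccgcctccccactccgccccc
Gad2 at chr2:22622077-22622326, plus strand: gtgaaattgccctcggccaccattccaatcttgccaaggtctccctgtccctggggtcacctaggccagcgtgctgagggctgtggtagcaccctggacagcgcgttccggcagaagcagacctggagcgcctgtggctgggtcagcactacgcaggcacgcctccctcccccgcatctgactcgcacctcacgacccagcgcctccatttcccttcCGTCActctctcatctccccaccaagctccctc
Sst at chr16:23890845-23891094, minus strand: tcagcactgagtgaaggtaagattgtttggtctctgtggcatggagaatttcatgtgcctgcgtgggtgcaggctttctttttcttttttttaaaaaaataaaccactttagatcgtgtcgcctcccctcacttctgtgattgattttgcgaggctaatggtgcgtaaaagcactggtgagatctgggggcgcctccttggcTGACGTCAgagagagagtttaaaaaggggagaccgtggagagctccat
Dlx2 at chr2:71546755-71547004, minus strand: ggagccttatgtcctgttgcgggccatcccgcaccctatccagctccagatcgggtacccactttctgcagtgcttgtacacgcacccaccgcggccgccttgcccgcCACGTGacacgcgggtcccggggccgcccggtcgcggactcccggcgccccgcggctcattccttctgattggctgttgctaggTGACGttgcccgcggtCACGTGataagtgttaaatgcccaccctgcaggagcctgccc
The Gad1 window held none of the 4 words. The Gad2 window held 1 short form, in the stretch that GENCODE M21 annotates as exon. The Sst window held the whole palindromic element, which contains the short form on each strand. The Dlx2 window held CACGTG at 2 places, each with ACGTG on both strands, and 1 TGACG. Over 32851 mouse windows of the same length, 16.6% held ACGTG, 17.8% held TGACG, 1.55% held TGACGTCA and 4.84% held TAATTA. A match is a string of letters and was not tested for binding. GENCODE M21 (GRCm38) places exons of the same gene over 87 bases of the Gad1 window, 122 of the Gad2 window and 114 of the Sst window.

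By that annotation Gad1 spans chr2:70553072-70602014 and Gad2 chr2:22622205-22693874, both on the plus strand. The antisense gene Gad1os overlaps Gad1, but none of the 50-base words of Gad1 exons lay opposite another gene's exons. At most 1.49% of the 50-base words of any of the 10 genes occurred in another gene.

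Slc32a1 encodes the vesicular GABA transporter and lies at chr2:158610767-158615748, plus strand. It was at 4.15, 4.23, 4.19, 4.56 and 3.99 log2 CPM in N_WT and at 4.07, 3.62, 4.11, 4.59 and 3.80 in OGD_WT, with overlapping groups. The estimate was -0.19 (95% interval -0.55 to 0.17, limma adjusted p = 0.391) in wild type and -0.25 (95% interval -0.59 to 0.09, limma adjusted p = 0.226) in knockout, each lower in 4 of 5 cultures. With total-read scaling these estimates were -0.46 and -0.53, and both passed (limma adjusted p = 0.0236 and 0.0176). Exons of the antisense gene Gm14205 lie opposite 23.7% of the 50-base words of Slc32a1, and without a stated strand setting in the counting, reads of the 2 genes cannot be told apart there.

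Among the lineage factors, Lhx6 was lower under OGD in both genotypes. Lhx6 (chr2:36081953-36105408, minus strand) is needed for the migration and specification of medial eminence interneurons. It was at 4.52, 4.79, 4.71, 4.67 and 4.47 log2 CPM in N_WT and at 3.85, 4.05, 4.36, 4.87 and 3.64 in OGD_WT. Library 4 of OGD_WT was the highest of all 10, and the other 4 OGD libraries lay below every N_WT library. The mean was 4.63 ± 0.13 in N_WT and 4.16 ± 0.48 in OGD_WT (SD, n = 5), and Lhx6 fell by 0.48 (SE 0.19, limma adjusted p = 0.0417, exact permutation p = 0.0873), in 4 of 5 cultures. This call was lost in 9 of 20 alternative fits, among them the fit to batch 3 cultures alone (limma adjusted p = 0.134), the fit without an intensity trend (limma adjusted p = 0.0535) and 7 of the 10 fits without 1 library. Those 7 left out library 1, 2 or 5 of OGD_WT or library 1, 2, 3 or 4 of N_WT, with limma adjusted p from 0.0526 to 0.115.

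In the knockout Lhx6 was at 4.72, 4.48, 4.44, 4.86 and 4.30 log2 CPM in N_KO and at 4.26, 3.85, 3.97, 4.47 and 3.69 in OGD_KO, with only library 4 of OGD_KO inside the normoxic range. Lhx6 fell by 0.51 (SE 0.17, limma adjusted p = 0.0188, exact permutation p = 0.0238), to 70.0% of normoxia, in 5 of 5 cultures. The call was lost without library 1 or 4 of N_KO (limma adjusted p = 0.0533 and 0.0501) and in batch 3 cultures alone (-0.55, limma adjusted p = 0.226).

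The 3 Dlx genes encode homeodomain factors that act early in the GABAergic lineage, with Dlx5 downstream of Dlx1 and Dlx2. Dlx1 (chr2:71528113-71533981, plus strand) was at 6.55, 6.76, 6.32, 6.31 and 6.35 log2 CPM in N_WT and at 6.38, 6.22, 6.25, 5.77 and 6.22 in OGD_WT. It was lower in 5 of 5 cultures, and the estimate of -0.29 did not pass in limma (95% interval -0.60 to 0.02, adjusted p = 0.123, exact permutation p = 0.0317). In the knockout the estimate was -0.15 (95% interval -0.47 to 0.17, limma adjusted p = 0.446), in 4 of 5 cultures. With total-read scaling Dlx1 passed in both genotypes, at -0.57 and -0.44 (limma adjusted p = 0.00508 and 0.0298). The antisense gene Dlx1as lies opposite 5.19% of the Dlx1 words, and its own estimates were 0.23 in wild type and -0.07 in knockout (limma adjusted p = 0.337 and 0.792).

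Dlx2 (chr2:71543408-71546754, minus strand) ranged from 2.40 to 3.68 log2 CPM in N_WT and from 2.96 to 3.48 in OGD_WT. Its estimates were 0.16 and 0.25 (limma adjusted p = 0.542 and 0.288) in wild type and knockout, and -0.11 and -0.03 with total-read scaling. Dlx5 (chr6:6877805-6882085, minus strand) ranged from 2.88 to 3.69 log2 CPM in N_WT and from 2.81 to 3.78 in OGD_WT, with an estimate of 0.02 (95% interval -0.38 to 0.43, limma adjusted p = 0.931) that was -0.24 with total-read scaling. In the knockout Dlx5 was at 2.86, 3.29, 3.15, 3.42 and 3.42 log2 CPM in N_KO and at 3.75, 3.01, 3.68, 3.73 and 3.95 in OGD_KO. The estimate of 0.40 (SE 0.18) did not pass (limma adjusted p = 0.0804) and was 0.12 with total-read scaling. Without library 2 of OGD_KO it was 0.55 and passed (limma adjusted p = 0.00930), and it also passed on the values as deposited, whose p-values are too small (0.41, limma adjusted p = 0.0106).

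Sst, Npy and Calb2 mark interneuron classes. Sst encodes somatostatin, a peptide of dendrite-targeting interneurons (chr16:23889573-23890958, minus strand). It was at 5.36, 5.33, 5.44, 6.06 and 5.15 log2 CPM in N_WT and at 5.23, 5.25, 5.20, 5.68 and 4.54 in OGD_WT. Sst was lower under OGD in 10 of 10 cultures, with log2 changes of -0.61 to -0.036, yet the spread between cultures exceeded this. The estimates were -0.29 (95% interval -0.68 to 0.11, limma adjusted p = 0.233) in wild type and -0.26 (95% interval -0.67 to 0.15, limma adjusted p = 0.294) in knockout. With the culture as a block they did not pass either (limma adjusted p = 0.107 and 0.155), whereas with total-read scaling they were -0.56 and -0.55 and passed (limma adjusted p = 0.0124 and 0.0415).

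Npy encodes neuropeptide Y, which part of the somatostatin cells and neurogliaform cells release (chr6:49822710-49829507, plus strand). It was at 2.71, 3.20, 2.998, 3.22 and 2.44 log2 CPM in N_WT and at 3.14, 3.68, 3.14, 3.03 and 2.61 in OGD_WT, an estimate of 0.21 (limma adjusted p = 0.404) that was -0.06 with total-read scaling. In the knockout it was at 3.41, 3.41, 3.24, 3.97 and 2.89 log2 CPM in N_KO and at 4.02, 3.69, 3.90, 4.16 and 3.30 in OGD_KO, higher in 5 of 5 cultures with overlapping groups. The estimate of 0.43 (SE 0.19) did not pass (limma adjusted p = 0.0844). It passed narrowly with the culture as a block (limma adjusted p = 0.0468). Without library 5 of OGD_KO or library 4 of N_KO it passed too (limma adjusted p = 0.0167 and 0.0214), as on the values as deposited, whose p-values are too small (0.47, limma adjusted p = 0.00968). It passed also without both libraries of culture KO5 (limma adjusted p = 0.0410). With total-read scaling it was 0.15 (limma adjusted p = 0.580).

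Calb2 had the largest fall of the 10 genes. It encodes calretinin, a calcium-binding protein of interneurons derived mainly from the caudal ganglionic eminence and of some other young neurons (chr8:110137502-110168210, minus strand). Calb2 was at 3.54, 3.23, 3.40, 3.92 and 3.14 log2 CPM in N_WT and at 2.33, 2.51, 2.56, 2.17 and 2.83 in OGD_WT. All OGD_WT libraries lay below all N_WT libraries. The means were 3.45 ± 0.31 and 2.48 ± 0.25 (SD, n = 5), and Calb2 fell by 0.97 (SE 0.17, limma adjusted p = 0.000128, exact permutation p = 0.00794), to 51.1% of normoxia. In the knockout it was at 3.61, 3.49, 3.82, 3.84 and 3.45 log2 CPM in N_KO and at 2.71, 2.23, 2.36, 2.93 and 2.84 in OGD_KO, again without overlap. It fell by 1.03 (SE 0.16, limma adjusted p = 8.72e-05, exact permutation p = 0.00794), to 49.1% of normoxia.

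Calb2 passed in all 20 alternative fits in wild type and all 21 in knockout, with log2 fold changes from -1.23 to -0.85 and from -1.30 to -0.93. In batch 3 cultures alone it fell by 0.91 in wild type and 0.93 in knockout. It was lower in 10 of 10 cultures, with log2 changes of -1.75 to -0.31. That count adds nothing to the lack of overlap, since any pairing of libraries would give it. It is a gene of few reads, with 64 to 161 per N_WT library and 32 to 71 per OGD_WT library. Of all genes, 10.5% had an absolute log2 fold change at least as large in wild type and 7.96% in knockout.

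The next question was whether loss of ciRS-7 changed these genes in either condition. None of the 10 genes passed in N_KO against N_WT, where limma called 0.0353% of 14152 genes, or in OGD_KO against OGD_WT, where it called 0.0282% of 14185 genes. At an unadjusted p under 0.05 there were 256 genes (1.81%) in normoxia and 253 (1.78%) under OGD, and Npy was the only member among them each time. limma with voom weights on the recovered reads also called 0 members in both comparisons. Shares of 1.81% and 1.78% lie below the 0.05 that uniform p-values would give, so these tests may run conservative. The cause of this was not tested. The estimates of the 9 genes other than Npy ran from -0.04 (Lhx6) to 0.23 (Calb2) in normoxia and from -0.10 (Lhx6) to 0.42 (Dlx5) under OGD. Intervals were wide enough to leave modest differences undetected: for Gad1 the 95% interval was -0.30 to 0.29 in normoxia and -0.40 to 0.34 under OGD.

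Npy had the largest genotype estimate. In the table that holds both genotypes it averaged 3.02 ± 0.34 log2 CPM in N_WT and 3.53 ± 0.40 in N_KO (SD, n = 5), a difference of 0.51 (SE 0.20, exact permutation p = 0.0635, limma adjusted p = 1.00). Under OGD it averaged 2.96 ± 0.38 in OGD_WT and 3.67 ± 0.34 in OGD_KO (SD, n = 5), a difference of 0.71 (SE 0.20, exact permutation p = 0.0159, limma adjusted p = 1.00). Groups overlapped in both conditions. Of all genes, 1.16% had an absolute difference at least as large in normoxia and 0.522% under OGD. Over the 21 alternatives the OGD difference stayed between 0.58 and 0.85, and its lowest limma adjusted p was 0.0761, on the values as deposited. N and OGD libraries of the same number share genotype and batch labels and may share an origin, so the 2 genotype comparisons may not be independent of each other.

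Finally, the response to deprivation was compared between genotypes as the difference of within-culture changes. limma called 0 of 13688 genes (0%), with 85 (0.621%) at an unadjusted p under 0.05 and no member among them. A fit with the culture as a random block also called 0. The share of 0.621% is again below the 0.05 of uniform p-values, so this test may run conservative too. The estimates, knockout minus wild type, ran from -0.12 for Gad2 (95% interval -0.69 to 0.45) to 0.37 for Dlx5 (95% interval -0.32 to 1.05). For Calb2 the estimate was -0.07 (95% interval -0.67 to 0.53). These intervals include differences as large as most of the responses themselves, so a difference between genotypes was not detectable at this spread, which does not show that the responses are alike.

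Other genes of the same biology, in lists written with earlier results of these data known, moved in both directions under OGD. Of 8 measured genes listed for GABA metabolism and transport, 1 rose and 3 fell in each genotype, with medians of -0.07 and -0.22. The list includes Slc6a8, a creatine transporter, which was not called in either genotype (-0.07 and -0.15) and enters both medians. Slc6a11, a GABA transporter found mainly in astrocytes, rose by 0.62 in wild type and 0.40 in knockout. Slc12a5, the potassium chloride transporter that sets the chloride gradient for GABA in mature neurons, fell by 0.75 and 0.85. Aldh5a1, which degrades the product of GABA transamination, fell by 0.72 and 0.79. The limma adjusted p of these 3 genes lay between 0.000238 and 0.0446. With total-read scaling, 0 of these 8 genes were called higher in either genotype, and 3 were called lower in wild type and 5 in knockout.

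Of 19 further transcription factors of eminence-derived neurons, 6 rose and 2 fell in wild type, and of 18 measured in knockout 8 rose and 2 fell. Prox1, a factor of caudal eminence interneurons, rose by 0.88 and 0.90, and Sp8, a zinc finger factor of the same lineage, rose by 0.83 and 0.96. Satb1, which promotes maturation of Lhx6-lineage interneurons, fell by 0.92 and 0.96, and Nr2f2, a caudal eminence factor, fell by 0.50 and 0.55. The list's median was 0.23 in wild type, which became -0.04 with total-read scaling, and 0.40 in knockout, which became 0.11. With that scaling 4 and 3 were called higher and 2 were called lower in each genotype.

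Of 23 further subtype genes, 5 rose and 7 fell in each genotype. Calb1, the calcium-binding protein calbindin, fell by 1.66 in both, and Nxph2, a neurexophilin, fell by 1.51 and 1.32. Htr3a, the serotonin receptor of caudal eminence interneurons, rose by 1.41 and 1.46, and Cxcr4, a chemokine receptor of migrating interneurons, rose by 1.07 and 0.80. The medians were -0.05 and -0.07. With total-read scaling, 2 and 1 genes were called higher and 11 and 10 lower.

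Lists for other cells are given beside these. Of 17 excitatory cortical genes, 12 fell and 2 rose in wild type and 13 fell and 1 rose in knockout, with medians of -0.83 and -0.81. Slc17a7, a vesicular glutamate transporter, fell by 1.69 and 1.62, and Neurod6 fell by 1.15 and 1.08. Cux1, an upper-layer factor, rose by 0.43 and 0.40, and Nrn1 rose by 0.64 in wild type and had an uncalled estimate of 0.30 in knockout. Of 14 striatal projection neuron genes, 6 fell and 1 rose in each genotype, among them Drd1, which fell by 1.15 and 0.85, and Ppp1r1b, which fell by 1.10 and 1.25. Meis2 rose by 0.39 in wild type and had an uncalled estimate of 0.37 in knockout. With total-read scaling, 14 excitatory genes were called lower and 0 higher in each genotype, and 9 striatal genes were called lower in each, with 0 higher in wild type and 1 in knockout.

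Of 15 pan-neuronal genes, 6 fell in wild type and 8 in knockout and 0 rose. Syt1, a synaptic vesicle calcium sensor, fell by 1.21 and 1.46, and Gap43, a growth cone protein, fell by 0.81 and 0.89. With total-read scaling, 13 of the 15 were called lower in each genotype and 0 higher. Of 10 astrocyte genes, 5 rose and 2 fell in wild type and 4 rose and 1 fell in knockout. Slc1a3, a glial glutamate transporter, rose by 1.08 and 0.95, and Gja1, the astrocyte connexin, rose by 1.06 and 0.91. Slc7a10 fell by 0.80 and 0.67, and Gfap fell by 0.47 in wild type and had an uncalled estimate of -0.34 in knockout. With total-read scaling, 4 astrocyte genes in wild type and 2 in knockout were called higher and 2 in each were called lower. The median over the 10 interneuron genes, -0.24 and -0.20, lay between those of the excitatory and the astrocyte list, and this order was not tested.

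Of 9 oligodendrocyte lineage genes, 1 rose and 3 fell in wild type and 3 rose and 0 fell in knockout. Cspg4 rose by 0.66 and 0.49, while Gpr17 and Mbp fell by 0.95 and 0.56 in wild type and had uncalled estimates of -0.81 and -0.30 in knockout. With total-read scaling the balance in knockout turned, with 0 called higher and 4 lower, beside 1 higher and 4 lower in wild type. Among the 12 proliferation genes Ccnb1 rose by 1.49 and 1.58 and Cenpf by 1.34 and 1.39, and 11 of the 12 were called higher in each genotype with total-read scaling. The vascular and meningeal list had 4 genes measured in wild type, of which 2 rose and 1, Pdgfrb, fell by 0.66. In knockout 5 were measured, of which 2 rose, and Pdgfrb had an uncalled estimate of -0.30. With total-read scaling, 1 was called higher and 1 lower in wild type, and 2 higher and 1 lower in knockout. No gene of the 11 lists was called by limma in either genotype comparison or in the comparison of responses.

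**Figure D4:**
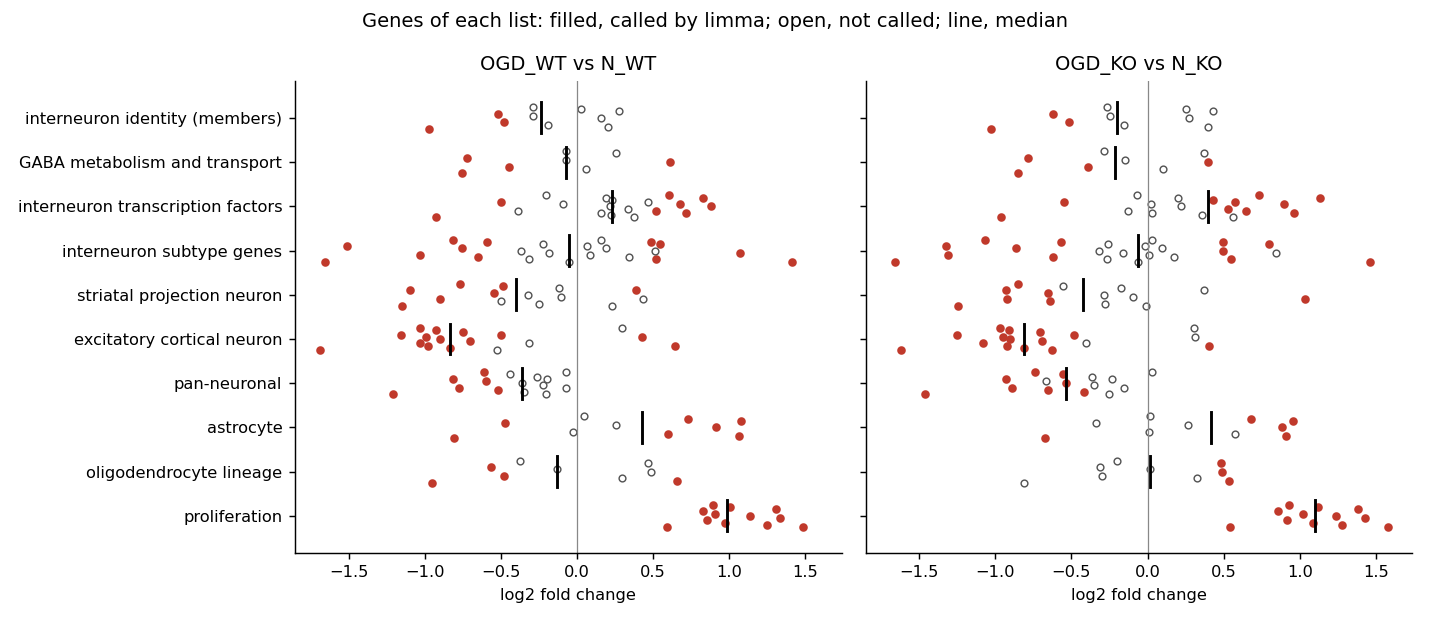
Log2 fold change under OGD (x axis) of each measured gene of 9 lists and of the 10 interneuron genes, in wild type (left) and knockout (right); filled points were called by limma, open points were not, and the black line is the median of the list. The interneuron genes spread on both sides of 0, the excitatory list has a median of -0.83 and -0.81, and all proliferation genes are above 0.

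The 10 genes did not vary as 1 unit between libraries of a group. By the assumed pairing the 20 libraries come from 10 cultures. After subtracting group means, the level of each gene was correlated with the mean of Gad1, Gad2 and Slc32a1 over these libraries. Those 3 genes take part in that mean, and among themselves their correlations were 0.93 for Gad1 with Gad2, 0.87 for Gad1 with Slc32a1 and 0.84 for Gad2 with Slc32a1. Lhx6 had r = 0.84 with the mean, Sst 0.72, Npy 0.51 and Dlx2 0.44. Dlx1, Dlx5 and Calb2 were near 0, at 0.10, 0.05 and -0.04. Dlx1 had r = 0.65 with Dlx5 and 0.61 with Dlx2. Sst had r = 0.80 with Npy, 0.78 with Slc32a1 and 0.77 with Lhx6.

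The 5 genes outside the set most like the mean of Gad1, Gad2 and Slc32a1 were Ppargc1a at r = 0.95 and Gabrg3, Snhg11, Tmem47 and Tox2 at r = 0.92 each. The top 1% of 12687 genes compared began at r = 0.77, and the median was 0.07. Under OGD Gabrg3, a GABA receptor subunit, fell by 0.71 in wild type and 0.60 in knockout (limma adjusted p = 0.00312 and 0.00778), and the long noncoding RNA Snhg11 fell by 0.45 and 0.57 (limma adjusted p = 0.0381 and 0.0154). Ppargc1a, Tmem47 and Tox2 had uncalled estimates between -0.15 and 0.06. These correlations describe how levels differ between libraries of 1 group and carry no test.

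**Figure D5:**
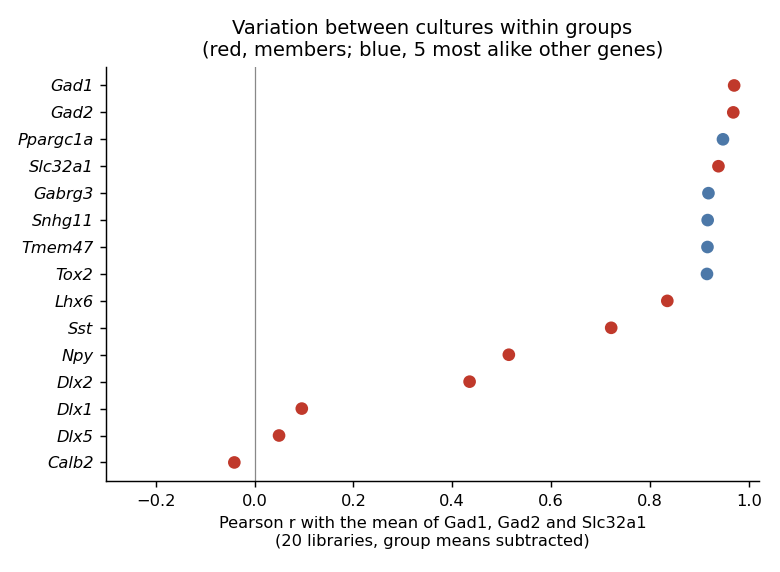
Pearson r (x axis) of each gene with the mean of Gad1, Gad2 and Slc32a1 across 20 libraries after group means were subtracted; red points are the interneuron genes, of which those 3 are part of the mean, and blue points the 5 most alike other genes. Lhx6 and Sst lie at 0.84 and 0.72, and Dlx1, Dlx5 and Calb2 near 0.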

How the data were processed

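RNA was sequenced from 20 mouse libraries of total RNA made with a stranded kit, per the labels' protocols. The 4 tables the authors deposited hold 1 comparison of 10 libraries apiece, in log2 CPM, as the values show. The genome build is mm10, per the submitters' processing notes, and the aligner, counting, gene filter and scaling are not given in the sources used here. Within a group, the extreme values of a gene had been moved towards the next library (weights 0.6 and 0.4), which no label states and which was inferred from the deposited values. This was undone: whole reads, within 0.05 reads for genes of up to 500 reads, then made up at least 99.9% of values per library, against 45.5% to 92.8% as deposited.

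Each comparison was fitted in its own table with limma 3.58.1 in R 4.3.3 (intensity trend, two-sided, Benjamini-Hochberg over all genes, called at an adjusted p under 0.05), with no block. Levels of different tables were scaled separately. Responses were compared between genotypes on within-culture differences of recovered reads over library totals (log2, prior count of 2, 13688 genes in all 4 tables). Exact permutation tests on 5 against 5 libraries are two-sided. RPKM used GENCODE M21 exon lengths and total reads. The members, the 11 lists and the main fit were chosen with earlier results of these data known, and lists were described by counts and medians. The microglial list is not reported here. Named list genes were the 2 largest called rises and falls in wild type with a mean of at least 1 log2 CPM. Total-read scaling, the fit without culture KO5, the Gad1 to Gad2 ratio and the promoter words were added after seeing the data.

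The table scaling raised OGD relative to N by 0.28 (wild type) and 0.29 (knockout) on the log2 scale against total-read scaling, and 48.6% of wild-type calls were higher with the first and 22.1% with the second (51.3% and 22.0% in knockout).

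Numbers pair N and OGD libraries by the shared genotype and batch labels. The levels did not bear this out: deviations from group means of same-numbered libraries correlated at -0.66 to 0.05 in wild type and -0.77 to -0.07 in knockout. Of the 5 OGD libraries of each genotype, 0 correlated best with the N library of their own number. Counts of cultures and the comparison of responses rest on this pairing. Tests were checked on simulated data.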

Additional observations from a re-analysis of the deposited data

Results flagged for a closer look

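Among 44 groups of 5 libraries (the 10 genes and the Gad1 to Gad2 ratio in 4 groups each), Dixon's test found 2 with a library apart from the rest, and chance alone gives about 2.2. Dlx1 in library 4 of OGD_WT was at 5.77 log2 CPM (426 reads), where the other 4 libraries were at 6.22 to 6.38. Dlx5 in library 2 of OGD_KO was at 3.01 log2 CPM (95 reads), where the other 4 were at 3.68 to 3.95, and without it Dlx5 passed in the knockout, as given above.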

How the results depend on the processing

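Of 990 alternative fits of single members, 893 kept their direction and side of the threshold, 15 lost a call, 15 gained one and 67 changed sign, all 67 in values that were not called. The precision is limited by 5 libraries a group and, for Calb2, Npy, Dlx2 and Dlx5, by counts of at most 215 reads per library.

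With total-read scaling 6 members were called lower in each genotype in place of 3 (Slc32a1, Sst and Dlx1 joined), beside 40.5% and 37% of all genes called lower in place of 22.8% and 19.9%, and the signs of Gad1 (-0.0051 in wild type, -0.021 in knockout), Npy (-0.058 in wild type), Dlx2 (-0.11 and -0.028) and Dlx5 (-0.24 in wild type) changed. On the values as deposited 6 members were called in OGD_KO against N_KO in place of 3, beside 55.8% of all genes in place of 40.9%, and Gad1 in OGD_KO against OGD_WT was 0.0050. Leaving out 1 library gave 1 to 3 called members in wild type and 2 to 5 in knockout, beside 36.9% to 46.6% and 34.1% to 41.3% of all genes. With 1 called (Calb2) the library left out was 2 of OGD_WT or 2 or 4 of N_WT, and with 5 called it was library 5 of OGD_KO (Npy and Dlx2 joined). Without both libraries of culture KO5 there were 4, beside 41.2% of all genes. In the genotype comparisons and the comparison of responses 0 members were called in every alternative.

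With the replicate block, which pairs libraries of 1 culture in the OGD comparisons, 3 members were called in wild type and 4 in knockout, where Npy joined, beside 39.9% and 33.6% of all genes, and no other member's call changed. In the genotype comparisons same-numbered libraries share a number and, for number 1 alone, a batch label: their deviations correlated at -0.09 to 0.23 in normoxia and -0.22 to 0.22 under OGD, with 3 and 2 of 5 correlating best with their own number, and with the block 0 members were called, among 3 genes in normoxia against 5 without it and 2 under OGD against 4.

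Other values that changed sign were Gad1 in N_KO against N_WT (0.0015 with median-of-ratios scaling, 0.083 with batch as a covariate), Slc32a1 there (-0.014 with total-read scaling), Lhx6 with batch as a covariate (0.00050 in normoxia, 0.031 under OGD) and Sst in the comparison of responses with median-of-ratios scaling (-0.0019). In batch 3 cultures alone they were Dlx5 in wild type (-0.071), Gad2 in OGD_KO against OGD_WT (-0.066), and Sst (-0.048) and Dlx2 (-0.049) in the comparison of responses. The cause of these changes was not tested.

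Over all genes, limma called 2341 in OGD_KO against N_KO in batch 3 cultures, where fewer libraries enter, against 5884 in all. In N_KO against N_WT it called 5, and 9 on the values as deposited, 11 with batch as a covariate, 2 in batch 3 cultures, 3 among genes of at least 1 log2 CPM and 3 to 5 without 1 library. In OGD_KO against OGD_WT it called 4, and 12, 17, 4, 3 and 1 to 7 under these settings, and 1 with a prior count of 0.5.

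Leaving out 1 library took uncalled values across 0 in OGD_WT against N_WT for Dlx2 (-0.037 to 0.28) and Dlx5 (-0.12 to 0.15). In N_KO against N_WT it did so for Gad1 (-0.10 to 0.072), Slc32a1 (-0.10 to 0.10), Sst (-0.18 to 0.11), Lhx6 (-0.12 to 0.030), Dlx1 (-0.044 to 0.11), Dlx2 (-0.10 to 0.23) and Dlx5 (-0.017 to 0.18). In OGD_KO against OGD_WT it did so for Gad1 (-0.12 to 0.11), Gad2 (-0.018 to 0.24), Slc32a1 (-0.17 to 0.078), Sst (-0.19 to 0.11) and Lhx6 (-0.23 to 0.087). In the comparison of responses, without 1 culture, it did so for Gad1 (-0.17 to 0.11), Gad2 (-0.26 to 0.076), Slc32a1 (-0.18 to 0.0059), Sst (-0.054 to 0.067), Lhx6 (-0.12 to 0.10), Dlx2 (-0.16 to 0.33) and Calb2 (-0.29 to 0.12).

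The log2 Gad1 to Gad2 ratio, OGD minus N, stayed between 0.75 and 0.84 in wild type and between 0.84 and 0.95 in knockout when 1 library was left out. In batch 3 cultures it was 0.84 in wild type (exact permutation p = 0.0286) and 1.10 in knockout, where 3 against 3 libraries cannot go below p = 0.1. The ratio of N_KO against N_WT ran from -0.25 to -0.16 without 1 library and was -0.25 in batch 3 (exact permutation p = 0.0571), and that of OGD_KO against OGD_WT was 0.0016 in batch 3.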
